A study of Mus musculus with 10 samples.

Results

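The nuclear-encoded subunits of the oxidative phosphorylation machinery were examined in RNA sequencing libraries of mouse bone marrow-derived macrophages. Members were chosen by gene symbol, as the Nduf, Sdh, Uqcr, Cox4 to Cox8 and Atp5 genes of the deposited table, without symbols marked -ps. A further condition was that normalized read counts averaged 10 or more across the 10 libraries. Of 57010 gene identifiers, 89 carried such a symbol and 78 of these reached the mean of 10, so the members are 78 of the 12455 genes that reached it. They comprise 36 subunits of complex I, all 4 of complex II, 8 of complex III, 13 of complex IV and 17 of complex V. The 11 symbols that stayed below the mean are described with their isoform partners. Ndufa4 is counted with complex IV, to which its protein belongs despite its name.

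The cells came from wild-type (WT) or WASp knockout (WKO) marrow, WASp being an activator of branched actin assembly in blood cells, and were cultured for 7 days in M-CSF, the macrophage growth factor, at 20 ng/mL. There were 2 WT unconfined, 2 WKO unconfined, 3 WT confined and 3 WKO confined libraries, and confinement lasted 1 h at a height of 3 µm under silicone micropillars. The design asks what WASp loss changes in each condition, what confinement changes in each genotype, and whether these effects differ. No label states the age or sex of the mice, whether replicates came from separate mice or cultures, or whether unconfined cells were placed in the device without pressure. The p-values therefore measure the spread between these libraries, which may be technical. An effect of confinement cannot be told apart from one of handling. Each library is a bulk sample of a culture, in which fewer cells of a type and less RNA per cell cannot be told apart.

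Oxidative phosphorylation is carried out in the inner mitochondrial membrane. Complexes I and II pass electrons from NADH and succinate to ubiquinone, complex III passes them to cytochrome c and complex IV to oxygen, while complexes I, III and IV pump protons that drive ATP synthesis by complex V. Most subunits are encoded in the nucleus and a few of the core ones in the mitochondrial genome, and macrophages are known to shift between respiration and glycolysis with their state of activation.

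The promoters of these genes are known for binding sites of nuclear respiratory factor 1 (NRF1), of ETS factors such as GABPA and of YY1, so the windows from 250 bases before to 50 bases after each annotated start in RefSeq (GRCm38.p6) were searched for them on both strands. Windows were available for 65 of the 78 members, 70 windows in all. The NRF1 palindrome was in 7.14% of the member windows, against 2.09% of the windows of all tested genes, and the shorter GCATGCGC, which makes up its last 8 letters, in 14.3% against 5.18%. The YY1 motif AAGATGGC was in 14.3% against 4.58%, and the ETS motif CCGGAAG in 24.3% against 18.03%. The GC box GGGCGG went the other way, with 38.6% against 62.2%. A match is a description of the letters and not a bound site. Stretches of 150 bases upstream of every annotated start are printed for 3 members, 5′ to 3′ on the strand of the gene, to show how the NRF1 letters sit in such a promoter. Cox6a1 (minus strand, chr5:115348982-115349131) and Ndufa11 (plus strand, chr17:56717612-56717761) hold the whole palindrome, and Ndufa6 (minus strand, chr15:82354323-82354472) the shorter form alone, each in capitals.
Cox6a1: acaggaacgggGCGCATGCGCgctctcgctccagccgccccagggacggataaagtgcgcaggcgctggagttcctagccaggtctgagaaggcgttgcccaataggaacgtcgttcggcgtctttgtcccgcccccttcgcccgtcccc
Ndufa11: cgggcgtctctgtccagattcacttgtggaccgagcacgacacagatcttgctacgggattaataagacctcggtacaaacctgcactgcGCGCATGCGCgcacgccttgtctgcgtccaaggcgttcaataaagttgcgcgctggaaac
Ndufa6: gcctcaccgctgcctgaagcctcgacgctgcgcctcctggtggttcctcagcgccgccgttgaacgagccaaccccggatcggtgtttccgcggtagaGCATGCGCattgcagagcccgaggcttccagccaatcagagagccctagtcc
The palindrome lies from position -162 to -153 relative to the annotated start in Cox6a1 and from -60 to -51 in Ndufa11.

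The genes of oxidative phosphorylation were abundant in these macrophages, and complex I genes lay below those of the other complexes. Because counts grow with transcript length, levels are given per kilobase of 1 transcript per gene. Coding transcripts were preferred, then those marked as principal, then the best supported and the shortest. The identifier of Ndufb1 is annotated as a bidirectional promoter lncRNA, and its transcript of 861 bases was used. The median member had a mean of 726 normalized read counts per kb over the 10 libraries against 139 for all tested genes, and 72 of the 78 members lay above that median. By complex the median was 486 per kb for complex I, 841 for complex III, 1115 for complex II, 1191 for complex V and 1540 for complex IV. Complex I had the lowest median and complex III the second lowest in 10 of the 10 libraries, and complex IV had the highest in 9 of them. The order of complexes II and V is less firm: complex V was above complex II in 9 libraries, but the difference was small beside the spread between libraries. Complex V held 41.9% of all normalized counts of the members, complex I 21.2%, complex IV 17.99%, complex II 10.3% and complex III 8.51%.

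By group, the complex I median per kb in a library was 485 ± 120.4 (SD, n = 2) for unconfined WT, 529 ± 14.6 (n = 2) for unconfined WKO, 509.8 ± 19.5 (n = 3) for confined WT and 457 ± 107 (n = 3) for confined WKO cells. For complex II it was 1142 ± 122 for unconfined WT, 1110.3 ± 58.7 for unconfined WKO, 1103 ± 22.4 for confined WT and 1058 ± 216 for confined WKO cells. The complex III median was 813 ± 132 for unconfined WT, 842 ± 7.50 for unconfined WKO, 871 ± 101.4 for confined WT and 881 ± 159 for confined WKO cells. That of complex IV was 1435 ± 531 for unconfined WT, 1545 ± 90.2 for unconfined WKO, 1535 ± 196 for confined WT and 1476 ± 355 for confined WKO cells. For complex V the values were 1199 ± 167 for unconfined WT, 1258 ± 27.6 for unconfined WKO, 1278 ± 34.0 for confined WT and 1119 ± 316 for confined WKO cells. Within each complex the group means differed by less than the largest of the group SDs.

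**Figure D1:**
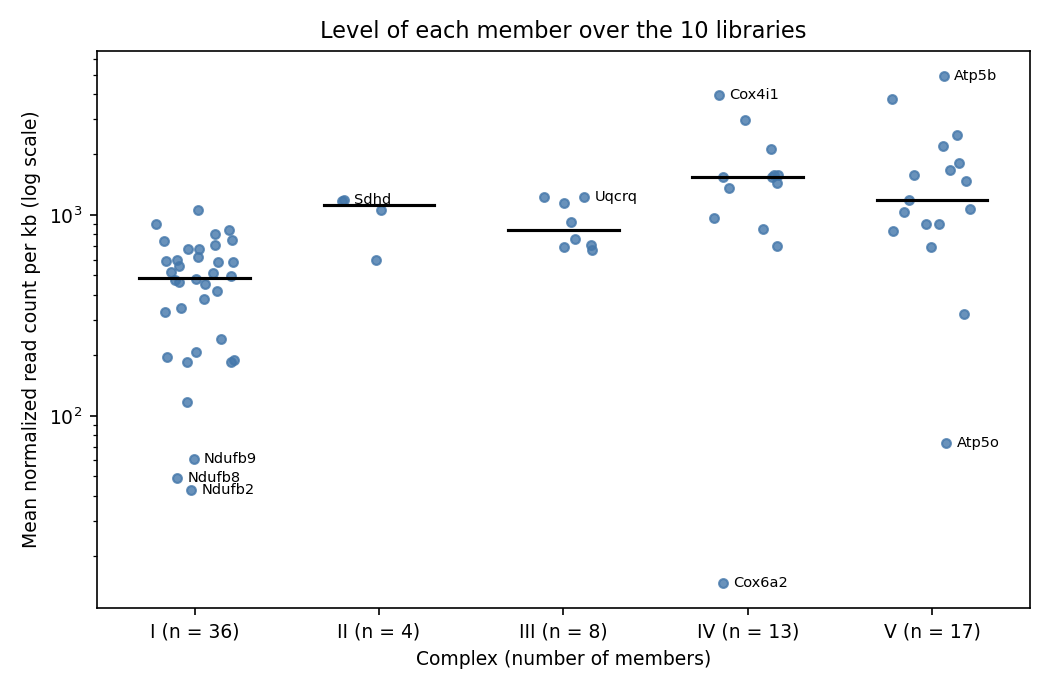
Mean normalized read count per kb of transcript over the 10 libraries (log scale) for each of the 78 members, by complex. Black lines are medians, 486 for complex I and 1540 for complex IV, and Cox6a2 at 14.8 is the lowest point.

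The member with the highest level was Atp5b, the catalytic beta subunit of the ATP synthase (ENSMUSG00000025393, GRCm38 chr10:128083273-128090391, plus strand), with 4912 counts per kb, and its alpha partner Atp5a1 (ENSMUSG00000025428, GRCm38 chr18:77773729-77782869, plus strand) had 3768. In complex IV the highest was Cox4i1 (ENSMUSG00000031818, GRCm38 chr8:120668222-120674207, plus strand), a subunit that takes part in regulating the enzyme, at 3965. Cox8a followed at 2974 and Cox6a1 at 2122. The complex II genes were close to one another, with Sdhd at 1188, Sdha at 1177 and Sdhb at 1053, and only Sdhc lower, at 598. The value of Sdhc depends on the transcript of 3171 bases used for it. Before division by length its mean of 1895 counts was above those of Sdhd (1463) and Sdhb (1203) and below that of Sdha (3415). Sdha carries the flavin that accepts electrons from succinate, Sdhb the iron-sulfur clusters, and Sdhc and Sdhd anchor the complex in the membrane. In complex III levels ran from 671 for Uqcr11 to 1232 for Uqcrq, with the core protein Uqcrc1 at 1231 and the Rieske iron-sulfur protein Uqcrfs1 at 693. In complex I the core subunits that receive electrons from NADH and pass them on had 514 per kb for Ndufs1, which carries iron-sulfur clusters, and 419 for Ndufv1, which binds NADH.

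The 4 lowest members after Cox6a2 were Ndufb2 (42.6 per kb), Ndufb8 (48.9), Ndufb9 (61.1) and Atp5o (73.4), the last of which encodes the stalk protein that connects the 2 parts of the ATP synthase. These are also the 4 members whose exons overlap another protein-coding gene on the same strand in GENCODE M21, namely Gm42420, Gm20538, Gm49356 and a second identifier of Atp5o, all 4 of which are listed at 0 in every library. How reads shared by overlapping genes were counted is not stated, and its part in these low values was not tested. Without them, the other 33 complex I members had a median of 514 per kb and none was below 117, and the other 16 complex V members had a median of 1335 and a lowest value of 321. Values of these 4 genes are uncertain throughout. On the opposite strand, 27 members overlap exons of another gene, among them Cox4i1, Ndufs1, Ndufa9, Ndufb5, Ndufs3, Cox5a, Uqcrb and Atp5a1, and the use of strand is not stated either. For 26 members another gene holds a near-identical stretch, which in 24 cases belongs to copies that all had a mean under 10.

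Where a subunit exists in several isoforms, 1 form supplied nearly all reads, and it was the same form in every library. Cox4i1 had 30283 reads over the 10 libraries against 25 for Cox4i2, a form best known from lung, which is a ratio of 1172 per kb. Cox6a1 had 12426 reads against 105 for the heart and muscle form Cox6a2, a ratio of 143 per kb, and Cox6b1 had 9804 against 22 for the testis form Cox6b2, a ratio of 333. Of the Cox6b2 reads 12 came from WKO confined replicate 2 and 5 libraries had 0, and without that library the ratio was 716. Between Cox7a2 and Cox7a1, the heart and muscle form, the ratio was 38.6 per kb, from 6566 and 97 reads, and Cox7a1 ranged from 4 to 24 reads in a library. Ndufa4 had 8588 reads and Ndufa4l2, a paralog known as a hypoxia target, had 17, a ratio of 755 per kb and at most 5 reads in any library. Cox8a had 16830 reads and Cox7b had 7201, whereas Cox8b, Cox8c and Cox7b2 had 0 in all libraries, and a total of 0 allows up to 3 reads each. Ndufb4b, Ndufb4c, Ndufs6b and Ndufb11b, the other symbols under the mean of 10, had between 0 and 4 reads in a library. The threshold falls between Cox7a1, with a mean of 9.86, and Cox6a2, with 10.1, so Cox6a2 is a member by a narrow margin. Cox7a2l, a relative of Cox7a2 that acts in joining complexes III and IV, had 1449.6 counts per kb.

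The genes Atp5g1, Atp5g2 and Atp5g3 are different, since they encode the same mature c subunit of the rotor and all were well expressed. Their levels were 1191, 2213 and 2495 counts per kb. Atp5g3 was above Atp5g1 in every library, by between 1.78 and 2.41 times per kb. Between Atp5g3 and Atp5g2 the order was not constant, with ratios from 0.581 in WKO confined replicate 5 to 1.62 in WKO unconfined replicate 3. Atp5g2 has a processed pseudogene identical over its whole transcript, and Atp5g1 one at 99.8% identity over 69.0% of it, so their counts are uncertain.

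The largest variation of the members was between libraries of the same group, and it was shared by all 5 complexes. The median deviation of the 78 members from their own 10-library means (log2) was -0.23 in WT unconfined replicate 1 and 0.23 in replicate 3. It was 0.03 and 0.09 in WKO unconfined replicates 1 and 3, and -0.08, 0.06 and 0.11 in WT confined replicates 2, 3 and 6. In WKO confined replicates 1, 2 and 5 it was 0.23, -0.08 and -0.34. The 2 libraries at each end therefore included 1 WT unconfined and 1 WKO confined library. Of the 78 members, 76 were above their own mean in WT unconfined replicate 3 and 13 in replicate 1, and 71 were above it in WKO confined replicate 1 and 6 in replicate 5. The median deviation of all tested genes lay between 0.00694 and 0.0125 in the 10 libraries.

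**Figure D2:**
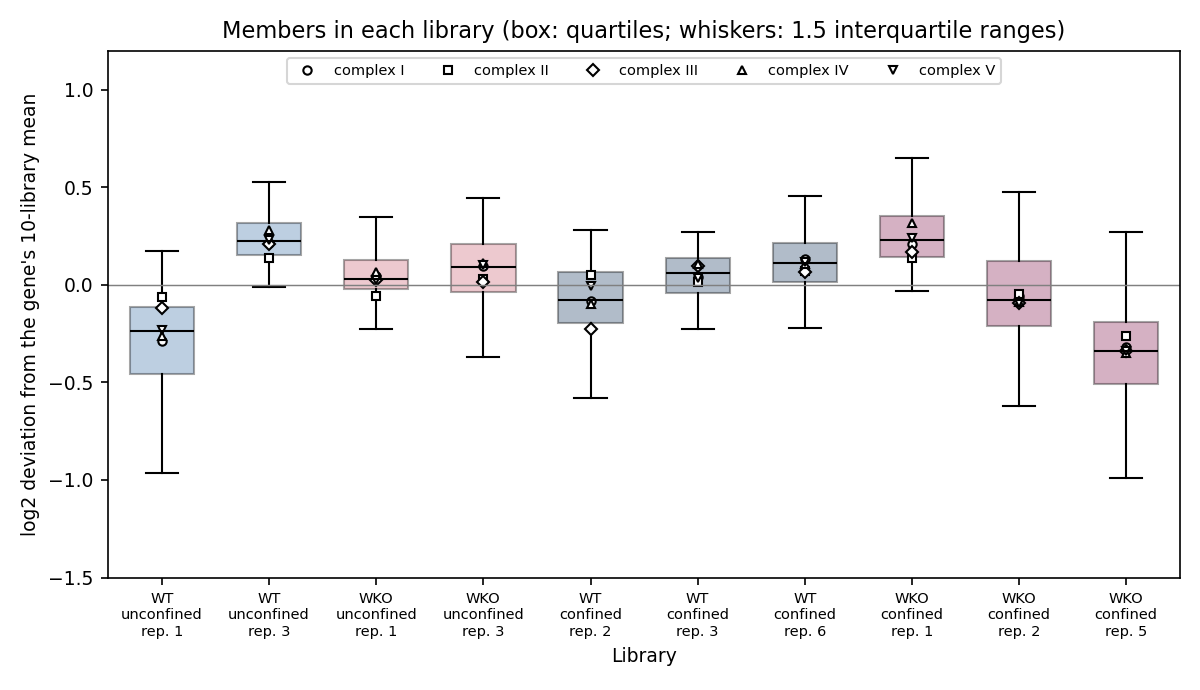
Deviation (log2) of the 78 members from their own mean over the 10 libraries, by library; boxes show quartiles and symbols the median of each complex. WT unconfined replicates 1 and 3 lie at -0.23 and 0.23, and WKO confined replicates 1 and 5 at 0.23 and -0.34.

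Set against each other, 74 of the 78 members were higher in WT unconfined replicate 3 than in replicate 1, with a median difference of 0.53 (log2) against -0.01 for all genes. In WKO confined cells 75 of 78 were higher in replicate 1 than in replicate 5, with a median difference of 0.61 against -0.02. The within-group SD of the median member was accordingly 0.39 in WT unconfined and 0.32 in WKO confined libraries, against 0.16 and 0.27 for the median gene. In WKO unconfined and WT confined libraries it was 0.08 and 0.13, against 0.12 and 0.15. Libraries within the WKO unconfined group, and those within the WT confined group, were thus closer to one another for these genes than for the median gene. Within each of the other 2 groups they were less close.

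Short transcripts moved in the same direction. The median member has a transcript of 738.5 bases, against 2601 for the median tested gene, and 53 of the 78 are under 1000 bases. All tested genes under 1000 bases differed by a median of 0.22 between the 2 WT unconfined libraries and 0.29 between WKO confined replicates 1 and 5, in the direction of the members. Of 89 tested symbols that start like those of cytosolic ribosomal proteins, 9 name other proteins, mostly kinases. The other 80, of which 7 had a mean under 100 counts, had median library deviations of -0.25 and 0.22 in WT unconfined and 0.24, -0.06 and -0.29 in WKO confined libraries. Among the 25 members of 1000 bases or more the deviations were -0.11 and 0.16 in WT unconfined and 0.15, -0.09 and -0.38 in WKO confined libraries. The part of transcript length and RNA quality in these differences was not tested.

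The members as a group took between 0.370% and 0.598% of the reads of a library, the lowest share in WKO confined replicate 5. Genes of the mitochondrial genome took between 1.11% and 1.96%, the highest share in the same library. Some mitochondrial genes had very few counts, as given below, so this share may leave out part of that genome. WT confined replicate 3, with a mitochondrial share of 1.89%, had a member share of 0.513%, in the middle of the range, so the 2 shares did not mirror each other in every library.

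**Figure D3:**
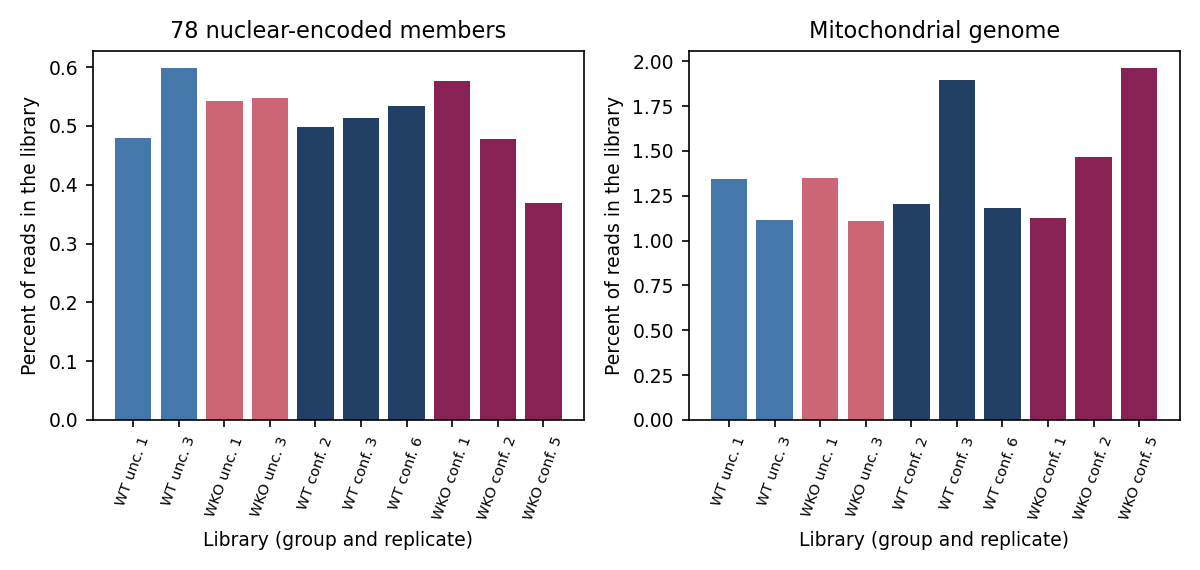
Percent of reads in each library that fell on the 78 nuclear-encoded members (left) and on the mitochondrial genome (right). WKO confined replicate 5 has the lowest share of members, 0.370%, and the highest mitochondrial share, 1.96%.

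Members followed one another across the libraries. The mean correlation of a member with another over the 10 libraries was 0.49, a description over libraries that share depth and composition. It was not computed for other genes, so it is not read as particular to the members. Cox4i1 had the highest mean correlation with the others, 0.67. The lowest were Ndufb8, at -0.20, and Uqcrb, at 0.05, followed by Uqcrc2 at 0.16 and Atp5h at 0.18. Of these Ndufb8 is one of the genes with an overlapping neighbour on the same strand.

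Loss of WASp in unconfined macrophages left no nuclear-encoded subunit past the threshold. With limma 0 of the 78 members had an adjusted p under 0.05, where 0.145% of all tested genes did, and 0 had an unadjusted p under 0.05, against 9.6% of all genes. The median log2 difference over the members was 0.10, with 49 positive and 29 negative, against 0.00 for all genes. By complex it was 0.15 for complex I, -0.06 for complex II, 0.04 for complex III, 0.11 for complex IV and 0.05 for complex V. The 95% interval of the difference lay within 2-fold in both directions for 64 of the 78. The groups did not overlap for 6 members that were higher in WKO, where 22.2% of all genes did so, and for 8 that were lower, against 22.7%. The sign of the median rests on 1 library: it was -0.19 without WT unconfined replicate 1 and 0.34 without replicate 3. A correction for GC content and transcript length moved it to -0.14.

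The 3 members with the smallest p were Sdhc, Uqcrb and Atp5j2. Sdhc (ENSMUSG00000058076, GRCm38 chr1:171127165-171150603, minus strand) had 1869.5 and 2163 normalized read counts in WT unconfined, 1765 and 1470.1 in WKO unconfined, 1975, 2205 and 1978 in WT confined and 2092, 1776 and 1655 in WKO confined libraries. Both WKO unconfined values were below both WT unconfined values, and the confined groups overlapped. The unconfined difference was -0.32 on the log2 scale (SE 0.148, 95% interval -0.64 to 0.00, limma adjusted p 0.529), and it was -0.19 without WKO unconfined replicate 3. Atp5j2, which encodes the f subunit of the membrane part of the ATP synthase (ENSMUSG00000038690, GRCm38 chr5:145183698-145192062, minus strand), had 423 and 763 normalized read counts in WT unconfined, 788 and 772 in WKO unconfined, 569, 646 and 671 in WT confined and 784, 660.1 and 546 in WKO confined libraries. The low value was that of WT unconfined replicate 1, and the other WT library was close to the WKO libraries. Its difference was 0.46 on the log2 scale (SE 0.245, 95% interval -0.08 to 0.99, limma adjusted p 0.619), and it was 0.03 without WT unconfined replicate 1 and 0.88 without replicate 3.

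In confined macrophages no member passed the threshold between the genotypes either. With limma 0 of 78 members had an adjusted p under 0.05, against 2.59% of all tested genes, and 3 had an unadjusted p under 0.05, against 16.8%. The median was -0.10, with 25 positive and 53 negative, against 0.00 for all genes, and the medians of the complexes ran from -0.13 for complex V to -0.06 for complex III. With a replicate block the median over the members turned to 0.15. Groups without overlap were found for 2 higher members (10.7% of all genes) and 3 lower ones (10.4%). For 68 members the 95% interval lay within 2-fold.

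Ndufa9, Atp5b and Ndufb5 had the smallest p, all with lower means in WKO. Ndufa9, an accessory subunit at the hinge of complex I (ENSMUSG00000000399, GRCm38 chr6:126821721-126849136, minus strand), had 923 and 1124 normalized read counts in WT unconfined, 894 and 777 in WKO unconfined, 928, 994 and 1015 in WT confined and 892, 701 and 664 in WKO confined libraries. Within each condition the WKO values were below the WT values without overlap, and the difference was -0.39 on the log2 scale (SE 0.136, 95% interval -0.69 to -0.09, limma adjusted p 0.167) in confined and -0.29 on the log2 scale (SE 0.167, 95% interval -0.65 to 0.08, limma adjusted p 0.658) in unconfined cells. Atp5b had 9652 and 10204 normalized read counts in WT unconfined, 8692 and 8239 in WKO unconfined, 10679, 10128 and 10802 in WT confined and 10106, 8739 and 6864 in WKO confined libraries. WKO was again below WT without overlap in both conditions, though WKO confined replicate 1 reached 10106, close to the lowest WT confined value of 10128. The confined difference of Atp5b was -0.32 on the log2 scale (SE 0.126, 95% interval -0.59 to -0.04, limma adjusted p 0.231). Ndufb5, an accessory subunit of the membrane arm (ENSMUSG00000027673, GRCm38 chr3:32736990-32751566, plus strand), had 557 and 616 normalized read counts in WT unconfined, 623 and 602 in WKO unconfined, 604, 583 and 586 in WT confined and 589, 463 and 367 in WKO confined libraries. Here WKO confined replicate 1 lay among the WT values and replicates 2 and 5 were lower, with a difference of -0.35 on the log2 scale (SE 0.157, 95% interval -0.69 to 0.00, limma adjusted p 0.291). Without WKO confined replicate 5 the differences of Atp5b and Ndufb5 were -0.16 and -0.18.

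Other settings gave calls in this comparison. Without WKO confined replicate 1, 7 members passed, all lower in WKO and including these 3, and with limma array weights, which gave WKO confined replicates 1, 2 and 5 weights of 0.283, 3.74 and 0.321, 8 passed, all lower. A GC and length correction, with equal weights, gave 2, also lower (Cox8a and Uqcrq, chosen after their values were seen), and the median was 0.05 without WKO confined replicate 5. Calls over all 12455 tested genes varied as well, from 58 to 701 on leaving out 1 library. They ran from 53 to 1948 over all alternatives, with 322 in the main fit. The counts of members are therefore not read as particular to these genes. Markers of other cells moved with the groups: the summed level of 11 stromal genes was between 163 and 635 in WT confined and between 706 and 8321 in WKO confined libraries, highest in replicate 5, and that of 12 neutrophil and progenitor genes was between 6247 and 11270.1 in WT confined and between 12756 and 32687 in WKO confined libraries. Their part in the result was not tested.

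**Figure D4:**
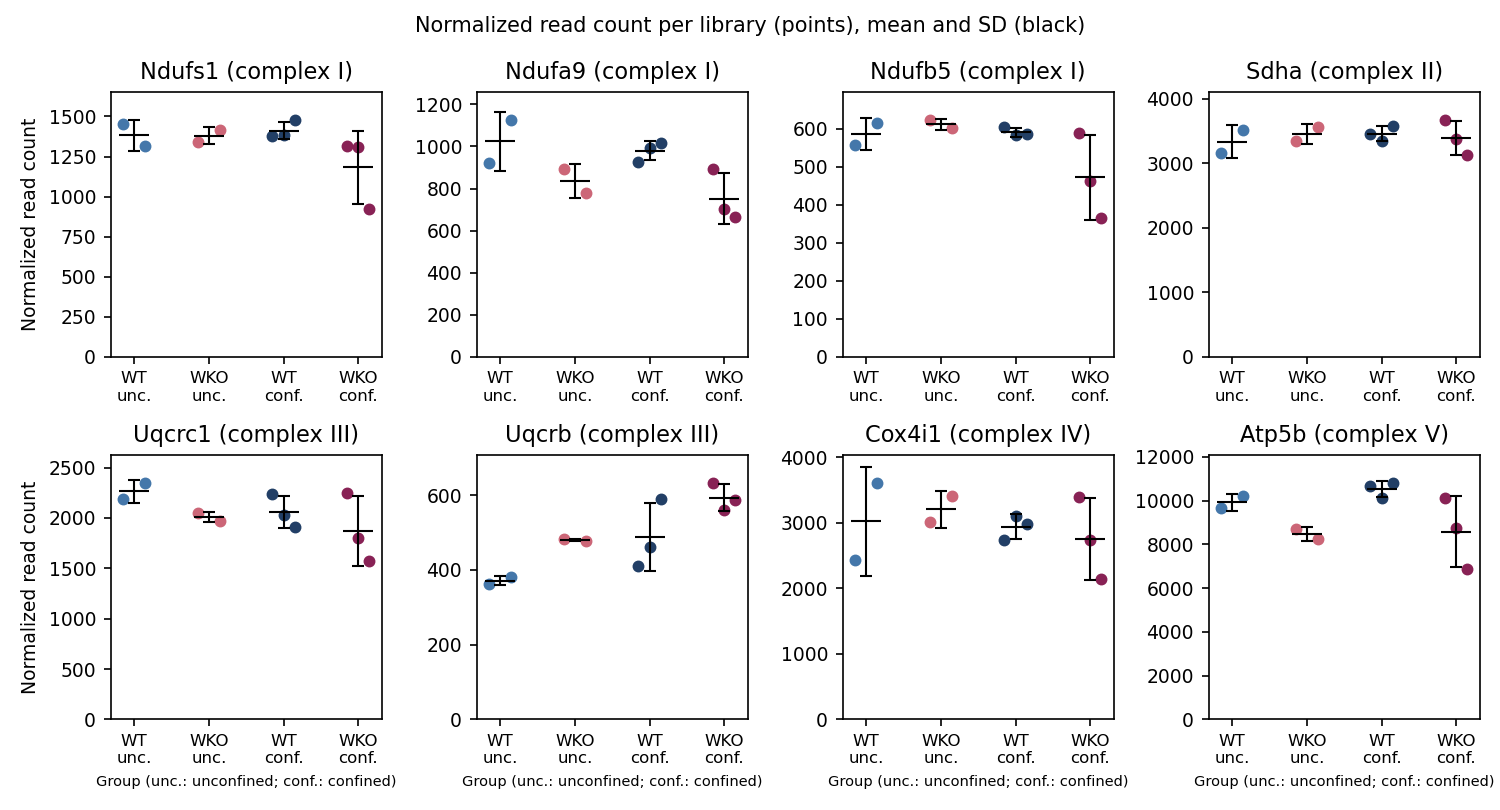
Normalized read count of 8 members in each library (points), with the mean and SD of the group in black; axes start at 0. For Ndufa9 and Atp5b the WKO points lie below the WT points of the same condition, and in Uqcrb both unconfined WT points are the lowest.

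Subunits at the centre of the complexes are given next. Sdha had 3158 and 3513 normalized read counts in WT unconfined, 3348 and 3569.9 in WKO unconfined, 3455, 3349 and 3577 in WT confined and 3666, 3374 and 3136 in WKO confined libraries. Its 10 values spanned 3136 to 3666 with no separation of groups, and the confined difference of -0.03 on the log2 scale (SE 0.0954, 95% interval -0.24 to 0.18, limma adjusted p 0.913) had the narrowest interval of the members described here. Uqcrc1 had 2185 and 2347 normalized read counts in WT unconfined, 2047 and 1971 in WKO unconfined, 2234, 2034 and 1913 in WT confined and 2250.1, 1797 and 1571 in WKO confined libraries. It was lower in both WKO unconfined libraries and overlapped between the confined groups. Cox4i1 had 2433 and 3605 normalized read counts in WT unconfined, 3004 and 3405 in WKO unconfined, 2736, 3105 and 2981 in WT confined and 3393, 2733 and 2145 in WKO confined libraries. Here the 2 WT unconfined libraries differed more from each other than any 2 group means. Cox5a and Uqcrfs1 had confined differences of -0.27 (95% interval -0.76 to 0.21) and -0.33 (-0.73 to 0.07), and Ndufs1 and Ndufv1 of -0.27 (-0.57 to 0.02) and -0.10 (-0.47 to 0.27), with limma adjusted p between 0.342 and 0.834. Atp5a1 differed by -0.19 (-0.43 to 0.04) and Sdhb by -0.06 (-0.43 to 0.31), with limma adjusted p of 0.413 and 0.906.

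Confinement of WT macrophages for 1 h moved no member past the threshold. With limma 0 of 78 passed, against 1.16% of all tested genes, and 1 had an unadjusted p under 0.05, against 12.2%. The median was 0.04, with 54 positive and 24 negative, against -0.01 for all genes, and it was -0.20 without WT unconfined replicate 1 and 0.26 without replicate 3. The medians of the complexes lay between -0.02 for complex III and 0.07 for complex I. Groups did not overlap for 2 higher members, against 18.3% of all genes, and for 4 lower ones, against 17.7%, and 67 intervals lay within 2-fold.

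Uqcrb, a small subunit that contacts the ubiquinone site of complex III (ENSMUSG00000021520, GRCm38 chr13:66900617-66905378, minus strand), had the smallest p and 362 and 380.0 normalized read counts in WT unconfined, 481 and 478 in WKO unconfined, 411, 462 and 589 in WT confined and 632, 560.1 and 586 in WKO confined libraries. Both WT unconfined libraries were the lowest of all 10, and all confined libraries of a genotype were above its unconfined ones. The difference with confinement was 0.38 on the log2 scale (SE 0.16, 95% interval 0.03 to 0.73, limma adjusted p 0.37) in WT and 0.30 on the log2 scale (SE 0.16, 95% interval -0.05 to 0.65, limma adjusted p 0.415) in WKO, and that of WKO against WT was 0.37 on the log2 scale (SE 0.175, 95% interval -0.01 to 0.75, limma adjusted p 0.541) in unconfined cells. With a GC and length correction by the longest transcript the last value turned to -0.0635, and without WT confined replicate 6 the difference with confinement in WT was 0.23. Its exons overlap those of Gm10767 on the opposite strand, and 3 processed pseudogenes cover 62.2% to 62.8% of its transcript at 97.6% to 98.2% identity, each with a mean under 2 counts. Ndufb8, with an overlapping neighbour and at most 66.1 counts, had the next smallest p at -0.94 on the log2 scale (SE 0.481, 95% interval -1.99 to 0.11, limma adjusted p 0.475). Its difference was -0.48 without WT unconfined replicate 1 and -1.40 without replicate 3. Ndufs7, which carries the last iron-sulfur cluster before ubiquinone (ENSMUSG00000020153, GRCm38 chr10:80249121-80256794, plus strand), had 620.3 and 793 normalized read counts in WT unconfined, 615 and 575 in WKO unconfined, 577, 536 and 550.3 in WT confined and 617, 357 and 388 in WKO confined libraries. The WT confined values were all below the WT unconfined ones, and the WKO groups overlapped because of WKO confined replicate 1. Its difference in WT was -0.34 on the log2 scale (SE 0.21, 95% interval -0.80 to 0.12, limma adjusted p 0.568). It was -0.52 without WT unconfined replicate 1 and -0.16 without replicate 3.

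Confinement of WKO macrophages likewise gave 0 of 78 members with limma, against 1.72% of all tested genes, and 2 with an unadjusted p under 0.05, against 14.1%. The median was -0.12, with 25 positive and 53 negative, against -0.01 for all genes, and with a replicate block it turned to 0.18. It was -0.13 for complex I, -0.03 for complex II, -0.14 for complex III, -0.12 for complex IV and -0.13 for complex V. Groups did not overlap for 4 higher members, against 14.5% of all genes, and for 5 lower ones, against 13.8%, and 62 intervals lay within 2-fold.

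Ndufs8, an iron-sulfur subunit of the arm of complex I that faces the matrix (ENSMUSG00000059734, GRCm38 chr19:3908863-3912774, minus strand), had 477 and 476 normalized read counts in WT unconfined, 526 and 531 in WKO unconfined, 455, 425 and 406 in WT confined and 508, 362 and 298 in WKO confined libraries. All WKO confined values were below both WKO unconfined values, and the difference was -0.47 on the log2 scale (SE 0.193, 95% interval -0.90 to -0.05, limma adjusted p 0.292). Ndufb5, given above, differed by -0.40 on the log2 scale (SE 0.176, 95% interval -0.78 to -0.01, limma adjusted p 0.338), with all 3 confined values below the unconfined ones. Cox7a2, a small complex IV subunit (ENSMUSG00000032330, GRCm38 chr9:79755361-79759878, minus strand), had 578 and 752 normalized read counts in WT unconfined, 713 and 841 in WKO unconfined, 658, 663 and 558 in WT confined and 795, 521 and 304 in WKO confined libraries. Its lowest value was in WKO confined replicate 5 and its second highest in WKO confined replicate 1, so the groups overlapped, with a difference of -0.63 on the log2 scale (SE 0.301, 95% interval -1.28 to 0.03, limma adjusted p 0.376). Without WKO confined replicate 5 the differences were -0.30 for Ndufs8, -0.23 for Ndufb5 and -0.27 for Cox7a2, and without replicate 1 that of Cox7a2 was -0.96. Without WKO confined replicate 1, 9 members passed, all lower after confinement, and with array weights 8, all lower, while without replicate 5 the median was 0.03. Over all 12455 tested genes the calls ran from 43 to 1043 on leaving out 1 library. Over all alternatives they ran from 33 to 1735, with 214 in the main fit, so these counts are not read as particular to the members. The comparisons of WKO confined libraries with WT confined and with WKO unconfined libraries share the same 3 libraries and are not independent.

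The interaction asks if the response to confinement differs between the genotypes, as the confinement difference in WKO minus that in WT. With limma 0 of 78 members passed, as did 0% of all tested genes, and 0 had an unadjusted p under 0.05, against 2.07%. DESeq2 and edgeR's quasi-likelihood test on the recovered reads gave 0 and 0 members and 0 and 0 genes in all. The median was -0.14, with 14 positive and 64 negative, against 0.01 for all genes, with -0.22 in complex V and -0.01 in complex II. It was 0.07 without WT unconfined replicate 1, -0.39 without WT unconfined replicate 3 and -0.02 without WKO confined replicate 5. The members with the smallest p were Ndufs3, Ndufs5 and Ndufb5, with differences of -0.45 on the log2 scale (SE 0.236, 95% interval -0.96 to 0.07, limma adjusted p 0.999), -0.52 on the log2 scale (SE 0.302, 95% interval -1.18 to 0.13, limma adjusted p 0.999) and -0.41 on the log2 scale (SE 0.249, 95% interval -0.95 to 0.13, limma adjusted p 0.999). That of Ndufs5 was -0.19 without WT unconfined replicate 1 and -0.86 without replicate 3, and without WKO confined replicate 5 those of Ndufs3 and Ndufb5 were -0.30 and -0.24. Ndufs3, a core subunit of the matrix arm, had 559 and 651 normalized read counts in WT unconfined, 641 and 731 in WKO unconfined, 680.3, 658 and 665 in WT confined and 679, 561 and 453 in WKO confined libraries. Its confined values were above the unconfined ones in WT and overlapped them in WKO. Intervals of the interaction were wide, and 49 of the 78 lay within 2-fold.

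**Figure D5:**
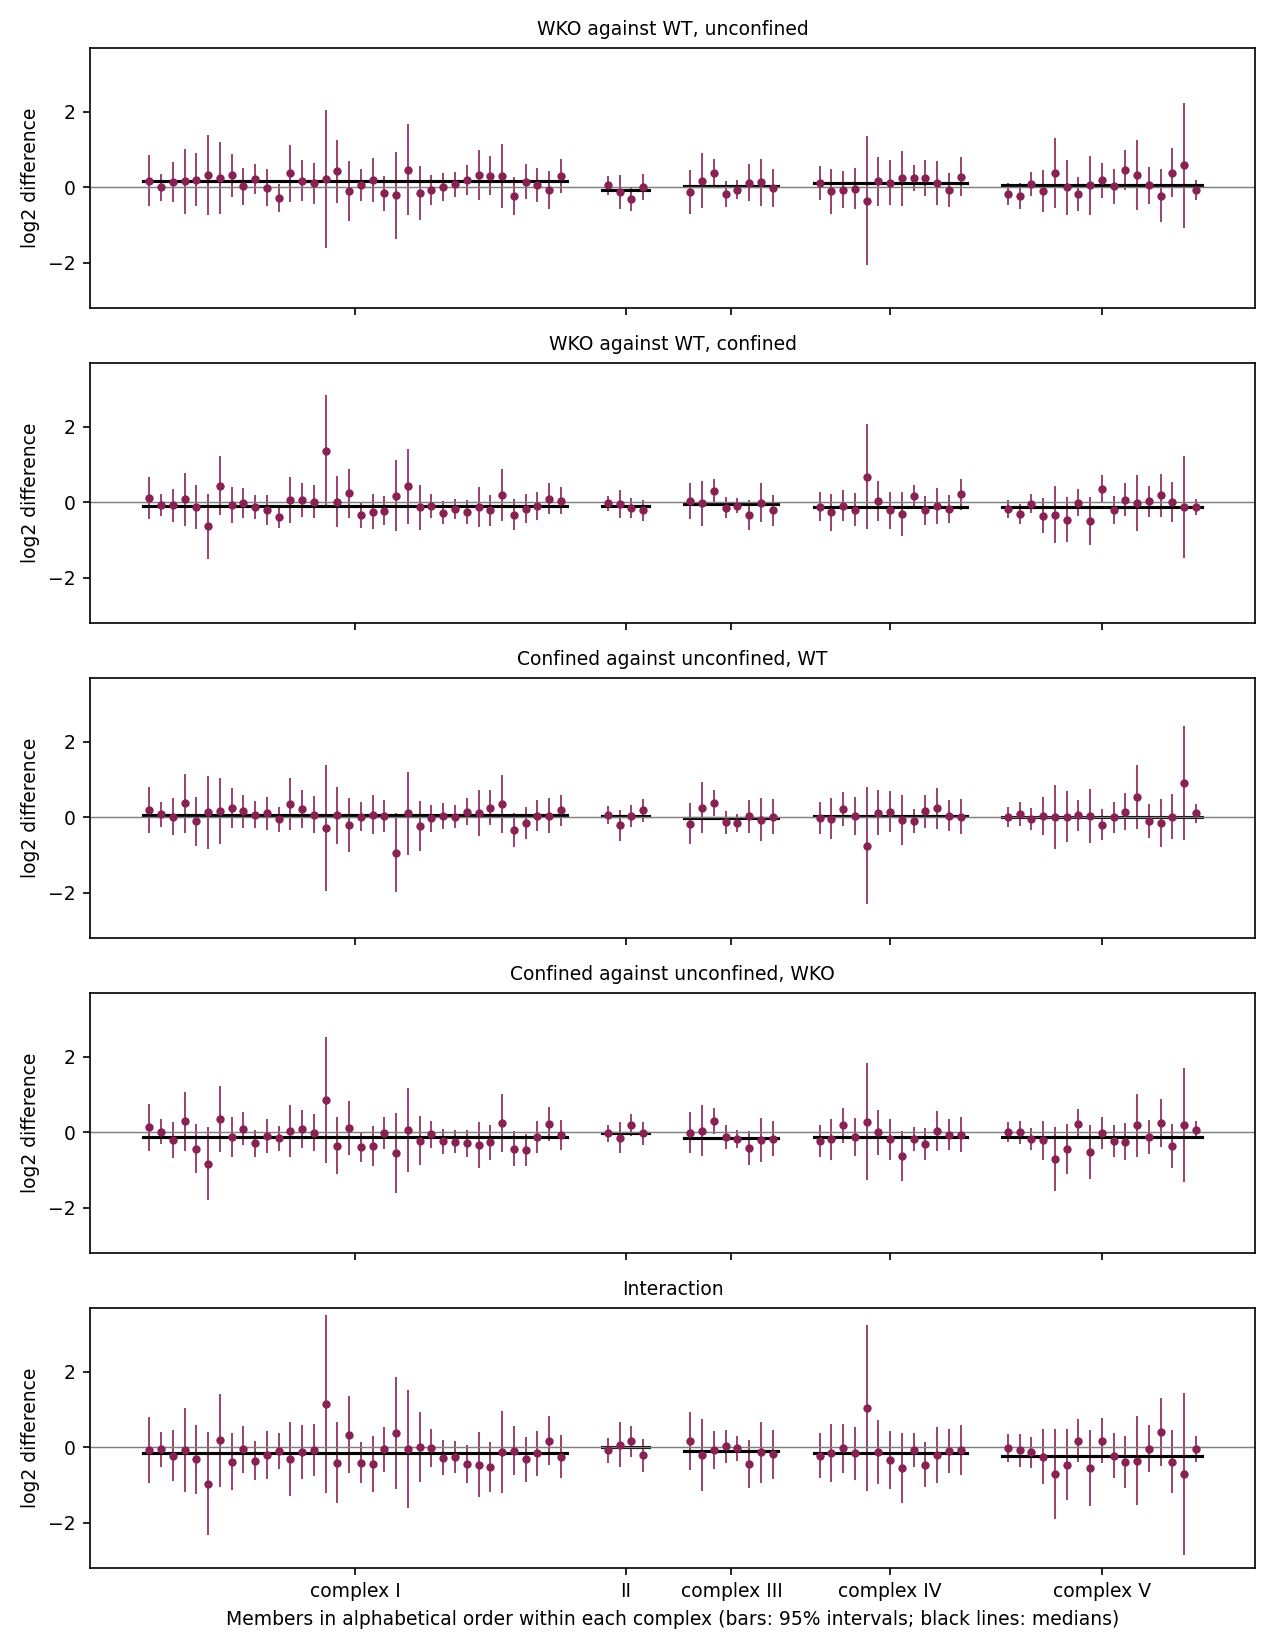
Log2 difference of each of the 78 members with its 95% interval in the 5 comparisons, ordered by complex; black lines are the medians of the complexes. The widest intervals belong to members with few reads, such as Ndufb2 and Cox6a2, and the medians stay between -0.22 and 0.15.

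Averaging over the other factor, a choice made after the single comparisons had been seen, narrowed the intervals. WKO against WT averaged over both conditions gave 0 of 78 members with limma, against 5.57% of all tested genes, and 4 with an unadjusted p under 0.05, against 20.2%. The median was -0.01, and 74 intervals lay within 2-fold and 58 within 1.5-fold. The smallest adjusted p was that of Ndufa9, -0.34 on the log2 scale (SE 0.108, 95% interval -0.58 to -0.10, limma adjusted p 0.0949). Confined against unconfined averaged over both genotypes also gave 0 of 78, against 6.21%, and 4 with an unadjusted p under 0.05, against 21.6%, with a median of -0.05 and 73 intervals within 2-fold. Uqcrb had the smallest adjusted p there, 0.34 on the log2 scale (SE 0.113, 95% interval 0.09 to 0.59, limma adjusted p 0.103).

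Genes around the complexes were counted in the same fit, from lists drawn up for the pathway. Of 13 mitochondrially encoded subunits 10 were tested, and 0 passed in any of the 5 comparisons. Their levels were very uneven. In no library did mt-Co2, mt-Co3 or mt-Atp6 exceed 31.7, 37.4 and 21.7 counts, whereas mt-Co1 had at least 87122. How reads of the mitochondrial genome were counted is not stated, so values over this list may rest on part of that genome. The median difference of the 10 with confinement was 0.29 in WT, with 8 of 10 positive, and 0.39 in WKO, with 9 of 10 positive. Their library deviations were highest in WT confined replicate 3 (0.55) and WKO confined replicate 5 (0.59). Averaged over genotypes 1 of the 10 passed, where 6.21% of all tested genes did. It was mt-Nd6, a complex I subunit encoded on the light strand, which was higher in confined libraries (log2 difference 1.08, limma adjusted p 0.0415). It had between 37.2 and 145 counts in unconfined and between 104 and 209.7 in confined libraries, where WKO confined replicate 1 overlapped the unconfined range. Of 53 assembly factors 50 were tested and 0 passed in any of the 5 comparisons, with medians of 0.01, -0.12, 0.02, -0.11 and -0.14 in the order in which the comparisons are given above, the last with 33 of 50 negative. Averaged over conditions 1 of the 50 passed, where 5.57% of all tested genes did. It was Ndufaf4, an assembly factor of complex I, which was lower in WKO (log2 difference -0.61, limma adjusted p 0.0442). It had between 147 and 190.0 counts in WT and between 93.4 and 144 in WKO libraries. The WKO values of Ndufaf4 did not overlap the WT values, by the narrow margin of 144 against 147. The share of all genes without such overlap across conditions was not computed. Ndufaf4 is named because it passed, so the lack of overlap adds no separate support. Marker sums moved with genotype in unconfined cells as well, with stromal genes between 774 and 1536 in WT and between 2004 and 2295 in WKO libraries, and neutrophil and progenitor genes between 9677 and 13716 in WT and between 28274 and 33364 in WKO libraries. Their part in the value of Ndufaf4 was not tested.

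The list of carriers and subunits outside the symbol rule, such as cytochrome c and the enzymes of ubiquinone synthesis, holds 15 symbols. Atpif1 is also listed under a second symbol, Atp5if1, so these are 14 genes, and all 14 were tested. Of 21 regulators of mitochondrial transcription and maintenance 20 were tested, and of 16 enzymes of the citric acid cycle and pyruvate dehydrogenase 16. In these 3 lists 0 genes passed in any of the 5 comparisons or the 2 averages. The median of the citric acid cycle list was -0.07 in WKO against WT unconfined, with 12 of 16 negative, and -0.16 in confined cells, with 13 of 16 negative. Of 100 symbols starting like cytosolic ribosomal proteins 89 were tested and 1 passed as lower in WKO confined cells. It was Rps6ka2, which encodes a kinase and not a ribosomal protein (log2 difference -1.31, limma adjusted p 0.0026).

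The whole series frames these values. Libraries held between 13295701 and 19329908 reads, and 3 reads correspond to between 2.35 and 3.59 normalized counts. The labels were checked on Was, which had between 1308 and 1649 counts in WT and between 96.9 and 154 in WKO libraries, and which fell by 3.30 in unconfined and by 3.91 in confined cells (log2, limma adjusted p 4.38e-06 and 5.99e-08). All 8 macrophage markers were present, with a summed level between 179561 and 208283 counts in WT and between 241895 and 314561 in WKO libraries, so the genotypes did not overlap. B lineage genes summed to between 423 and 1065 in WT and between 1834 and 6538 in WKO libraries. Genes of T and NK cells summed to at most 8.88 counts, with Ncr1 at 0, those of erythroid cells to at most 61.1, and those of dendritic cells to between 12.9 and 159, with Xcr1 at 0.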

How the data were processed

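RNA of 10 libraries of mouse macrophages was sequenced. The deposited values, in 1 table by the authors, are a signal, the normalized read count: whole read counts divided by a factor per library. The submitters' processing notes name FastQC, Trim Galore, STAR, GRCm38 and mm10, with no role or version. The counting tool, annotation and use of strand are not given in the sources used here. In each library 100% of the values were whole multiples (tolerance 0.001) of the value of 1 read, so whole reads were recovered.

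Genes with a mean of at least 10 were tested (12455). Differences were fitted on log2(value + 1) with limma 3.58.1 in R 4.3.3, with 1 mean per group, all 10 libraries and an intensity trend, leaving 6 residual degrees of freedom. A fold change on this scale understates the change of low genes. P-values were adjusted by the Benjamini-Hochberg method over all tested genes, with a threshold of 0.05. edgeR 4.0.16 and DESeq2 1.42.0 on the recovered reads were alternatives, as were other pseudocounts, filters, scalings, array weights, a replicate block, GC and length corrections and leaving out each library. The procedure was tested on simulated data. Lengths and GC content came from 1 transcript per gene of GENCODE M21 (GRCm38), coding and principal where annotated so, and positions from its gene entries. Near copies came from blastn 2.17.0 (95% identity, at least 100 bases and 20% of the transcript). An earlier correction used the longest transcript. It was replaced after its results had been seen and is kept as an added alternative.

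The members and lists were chosen with earlier results of these data known. The genes named with full values are, per comparison, the 3 members with the smallest p, any passing the threshold, a set of catalytic and core subunits, the highest and lowest member per kb of each complex, and isoform pairs; Cox8a, Ndufa11, Ndufa6 and others outside it are named for a sequence, a level or a count. Replicates differed by more than sampling noise (chi-square per degree of freedom 7.56 to 78.3), so each was counted once. The 95% intervals cover the spread between libraries, and limits from a count of 0 cover counting error alone. Results on a few genes that these rules name are not reported here.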

Additional observations from a re-analysis of the deposited data

How the results depend on the processing

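In the comparison of WT confined with unconfined cells and in the interaction, 0 of the 78 members passed under any of the alternatives run. Of 387 values of single members under alternatives, 371 kept their direction and side of the threshold, 14 passed it in addition, and Uqcrb in WKO against WT unconfined turned to -0.0635 with a GC and length correction by the longest transcript (adjusted p 0.926, and 0.885 with the block). For WKO against WT unconfined, the median over the members was -0.14 with the GC and length correction, with and without the replicate block, ranged from -0.19 to 0.34 on leaving out 1 library, and 1 member (Atp5md, -0.82) passed with block and correction together. For WKO against WT confined, 8 members passed with array weights, 2 with the GC and length correction, 8 with that by the longest transcript and 1 with the latter and the block (Atp5md, 0.81). On leaving out 1 library the count ran from 0 to 7, that over all tested genes from 58 to 701, and the median from -0.26 to 0.05. Over all alternatives the count over all tested genes ran from 53 to 1948, so these counts of members are not read as particular to them. For confinement in WKO cells, 8 passed with array weights and 0 to 9 on leaving out 1 library, where the median ran from -0.27 to 0.03. Over all tested genes 43 to 1043 passed on leaving out 1 library and 33 to 1735 over all alternatives. These counts of members are likewise not read as particular to them. For confinement in WT cells the median ran from -0.20 to 0.26 and for the interaction from -0.394 to 0.0652. The cause was not tested.

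Over 7 pairs of libraries with the same replicate number the correlation of deviations from the group mean lay between -0.11 and 0.08, and 0 were over 0.1. The deviations of the 2 libraries of an unconfined group mirror each other, so the 7 pairs are not independent. Whether the replicate numbers pair the libraries is not stated, and these correlations cannot decide it. With the block, which leaves 2 residual degrees of freedom, the median was 0.15 for WKO against WT confined and 0.18 for confinement in WKO cells (0.18 with the GC and length correction, 0.16 with that by the longest transcript). The longest-transcript corrections and the averages over the other factor were chosen after seeing the data. On the recovered reads edgeR's quasi-likelihood test and DESeq2 passed 0 members in each of the 5 comparisons. Over all genes, limma, edgeR and DESeq2 called 18, 15 and 179 for WKO against WT unconfined, 322, 319 and 775 confined, 144, 116 and 333 for confinement in WT, 214, 186 and 486 in WKO and 0 each for the interaction. Over all alternatives these counts ran from 4 to 425 for WKO against WT unconfined, 53 to 1948 confined, 20 to 455 for confinement in WT and 33 to 1735 in WKO. With 2 or 3 libraries per group, 49 to 68 of the 78 intervals lay within 2-fold, and for the rest a 2-fold difference is not excluded by the interval.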
